A study of Caenorhabditis elegans with 12 samples.

Results

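The windows described here are the 215 windows of 1000 bases that the deposited table marks with GRH, out of 100257 windows on chromosomes I to V and X of Caenorhabditis elegans. Of these, 25 windows also carry the second mark of the table, GRTS, and 190 do not. In this field GRH stands for heterochromatin that depends on germline nuclear RNAi, and GRTS for transcriptional silencing that depends on it; the sources used here do not spell the names out. The rule behind the marks is not known here. They may rest on RNA of these strains, in which case the direction of the marked windows is no independent evidence.

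RNA was measured in young adult hermaphrodites of the mutant strain hrde-1(tm1200) and of the wild-type strain N2. Both strains were grown at 23 C, for 3 generations in one set of libraries and for 4 in the other. Each strain and generation gave a library of whole-animal RNA, one of a nuclear-enriched fraction and one of a cytoplasmic-enriched fraction, so that 12 libraries form 6 groups of 2. The groups are hrde-1 whole, N2 whole, hrde-1 nuclear, N2 nuclear, hrde-1 cytoplasmic and N2 cytoplasmic RNA. The mutation is carried by every cell of the animal and whole animals were ground. A change in the number of germline cells and a change in RNA per germline cell therefore cannot be told apart, in either direction.

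HRDE-1 is an Argonaute protein of the germline that binds small interfering RNAs and acts in the nucleus. At loci with matching nascent RNA, this nuclear RNAi pathway lowers transcription and brings about methylation of histone H3 at lysine 9, a mark of heterochromatin. The pathway is known for silencing retrotransposons and for carrying silencing across generations. Heterochromatin and transcriptional silencing are separate readouts of the same pathway, and a locus can show either without the other.

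The values are the authors' normalized coverage, which is close to a share of each library and has a floor of 0.1. Low values lie on a ladder whose step is taken as 1 read, and on that scale the libraries held 190796 to 907905 reads. N2 cytoplasmic RNA was the shallowest, with 190796 and 263046 reads, against 361383 and 520317 reads in hrde-1 cytoplasmic RNA. Each window was tested two-sided with limma on log2(coverage + 1), and p-values were adjusted by Benjamini-Hochberg across the 43933 windows that averaged at least 1 over the 12 libraries; a window was called at an adjusted p below 0.05. The 2 libraries of each group are of generations 3 and 4, so the spread behind the p-values includes any difference between these generations. Nothing in the labels says that libraries came from separate cultures, and the rest of that spread may be technical. No source used here names the genome build of the table, and on chromosomes I and V the table ends before the last genes of the annotation at hand. Windows are therefore given by the table's own coordinates, and no gene, exon or transposon is assigned. The level of hrde-1 and the markers of cell types were not analysed here.

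The GRH windows were spread over the autosomes, with few on chromosome X. Chromosome I held 55 of them, II 40, III 32, IV 49, V 36 and X 3, which is 3.65 per 1000 windows on chromosome I and 0.169 per 1000 on X. The 25 windows with both marks lay on chromosomes I (6), II (8), IV (6) and V (5). The central part of the chromosomes, taken as the middle 0.333 of their length, held 25.1% of the GRH windows, against 33.3% of all windows. Joined across gaps of at most 1 window, the GRH windows formed 94 runs. Of these, 48 were single windows, 17 had 2 windows, and 29 had 3 or more and together held 133 of the 215 windows. Both kinds of GRH window met in 7 runs, and 9 runs held only windows with both marks. The longest run, I:4457001-4470000, had 12 GRH windows, 5 of them with GRTS. It was followed by II:11171001-11178000 with 7 and no GRTS, II:12740001-12747000 with 7 and 1 GRTS, V:5472001-5479000 with 7 and no GRTS, and I:2629001-2635000 with 6 and 1 GRTS.

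Most GRH windows gave RNA in these libraries. Of the 190 windows without GRTS, 165 passed the filter on the mean, and the median window averaged 4.58 in coverage, with an interquartile range of 1.88 to 8.30 and a highest value of 58.6. Of the 25 windows with GRTS, 22 passed, and the median window averaged 9.30, with a range of 0.408 to 37.1. The 28 GRH windows that did not pass averaged at most 0.978, and 3 of them were at the floor in every library. The filter can pass a window on one genotype alone: in 15 of the 165 windows and in 9 of the 22 the N2 mean was below 1. Levels, medians and overlaps below are therefore given over all members unless tested windows are named, and counts over tested windows are a description.

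RNA from both kinds of GRH window was higher in hrde-1, by a mean ratio of 9.26 to 38.3 across the fractions in windows with GRTS and of 1.39 to 2.20 in windows without it. In windows with GRTS, mean coverage was 14.8 and 16.8 in the hrde-1 whole libraries of generations 3 and 4, against 1.79 and 1.42 in the N2 whole libraries. In the nuclear fraction it was 31.3 and 26.6 in hrde-1, against 2.06 and 4.37 in N2. In the cytoplasmic fraction it was 14.6 and 11.9 in hrde-1, against 0.283 and 0.604 in N2. Above the floor the hrde-1 to N2 ratio was 10.4 in whole RNA (8.67 in generation 3 and 12.6 in generation 4), 9.26 in the nuclear fraction (15.9 and 6.20) and 38.3 in the cytoplasmic fraction (79.3 and 23.4). The cytoplasmic ratio rests on 5 reads in the N2 libraries, against 323 in the hrde-1 libraries.

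In GRH windows without GRTS, mean coverage was 8.67 and 9.38 in hrde-1 whole RNA, against 5.51 and 5.69 in N2 whole RNA. It was 13.5 and 11.9 in hrde-1 nuclear RNA, against 8.82 and 9.51 in N2 nuclear RNA. It was 8.19 and 6.49 in hrde-1 cytoplasmic RNA, against 3.13 and 3.64 in N2 cytoplasmic RNA. In each fraction both hrde-1 libraries lay above both N2 libraries. The ratio above the floor was 1.62 for whole RNA (1.59 and 1.66), 1.39 for the nuclear fraction (1.53 and 1.25) and 2.20 for the cytoplasmic fraction (2.67 and 1.80). Over all windows of the table the same ratios were 0.979, 0.970 and 1.06, and in the 166 windows with GRTS and no GRH they were 12.2, 12.4 and 17.5. With 2 libraries in each group an exact permutation test of such a mean cannot go below p = 0.333, so no test of the class means is given.

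**Figure D1:**
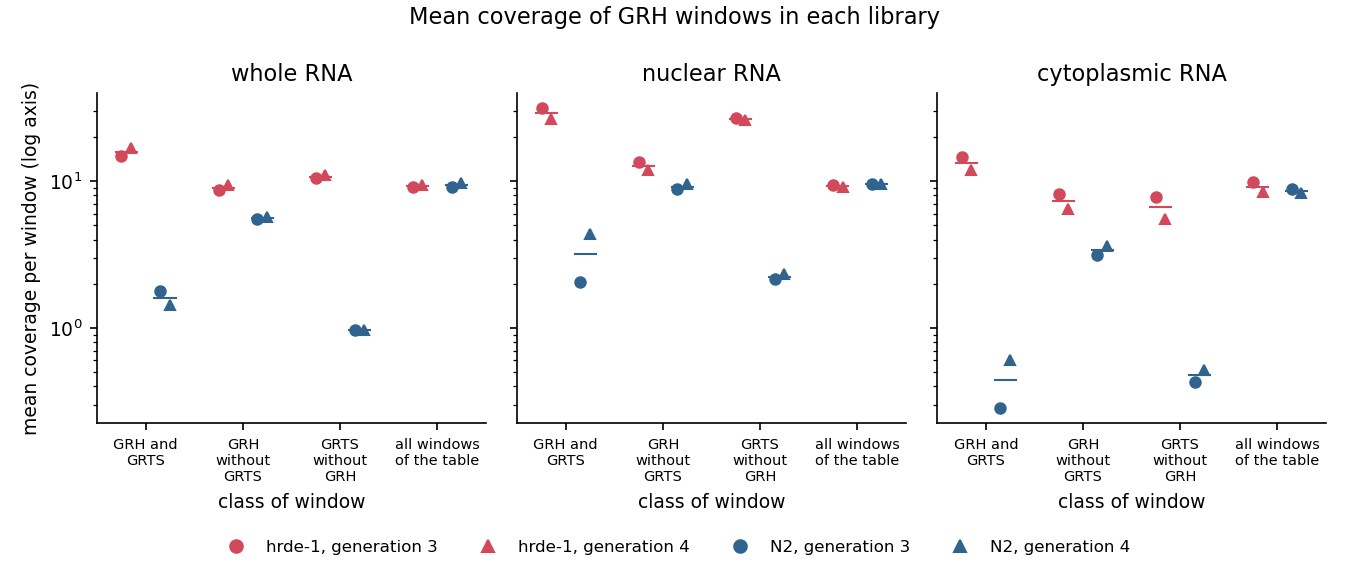
Mean normalized coverage per window (log axis) of 4 classes of windows in whole, nuclear and cytoplasmic RNA. Each point is a library, circles for generation 3 and triangles for generation 4, and short lines are the mean of the 2 libraries. In windows with both marks the hrde-1 libraries lie at 11.9 to 31.3 and the N2 libraries at 0.283 to 4.37, whereas in GRH windows without GRTS they lie at 6.49 to 13.5 and at 3.13 to 9.51.

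The kind of GRH window with more RNA was not the same in the 2 genotypes. In hrde-1, windows with GRTS averaged 15.8 ± 1.44 for whole RNA and 28.9 ± 3.34 for the nuclear fraction, and windows without GRTS averaged 9.03 ± 0.501 and 12.7 ± 1.13 (SD, n = 2 each). In N2, windows with GRTS averaged 1.61 ± 0.260 and 3.22 ± 1.64, and windows without GRTS averaged 5.60 ± 0.130 and 9.16 ± 0.482 (SD, n = 2 each). At the floor were 1 and 3 of the 25 windows with GRTS in the hrde-1 whole libraries, against 12 and 11 in the N2 whole libraries. Of the 190 windows without GRTS, 28 and 29 were at the floor in hrde-1, against 62 and 54 in N2.

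Window by window, all differences of the means in windows with GRTS ran one way. The hrde-1 mean was the higher in 24 windows and equal in 1 for whole RNA, higher in all 25 for the nuclear fraction, and higher in 19 and equal in 6 for the cytoplasmic fraction. Both hrde-1 libraries lay above both N2 libraries in 18 of these 25 windows for whole RNA, 22 for the nuclear fraction and 16 for the cytoplasmic fraction, and in 14 windows in all 3. Both lay below in none. Among all windows of the table the groups were parted this way in 9.14%, 8.38% and 10.9% in the same order, and in 0.532% in all 3. Of all windows 56324 averaged below 1, and among the tested windows the shares with hrde-1 above were 16.6%, 13.6% and 23.8%. The log2 difference was positive in 100%, 100% and 86.4% of the tested windows with GRTS. Over all tested windows it was positive in 50.1%, 41.3% and 59.2%.

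GRH windows without GRTS were mixed. The hrde-1 mean was higher in 138 windows, lower in 40 and equal in 12 for whole RNA. These numbers were 122, 64 and 4 for the nuclear fraction and 121, 22 and 47 for the cytoplasmic fraction. In the same order, the log2 difference was positive in 78.2%, 63.6% and 70.9% of the tested windows of this class. Over all tested windows it was positive in 50.1%, 41.3% and 59.2%. Both hrde-1 libraries lay above both N2 libraries in 72 of 190 windows (37.9%) for whole RNA, 70 (36.8%) for the nuclear fraction and 65 (34.2%) for the cytoplasmic fraction. Of the 165 tested windows alone these were 71 (43.0%), 66 and 65 (39.4%), beside the 16.6%, 13.6% and 23.8% of all tested windows. At like levels, among windows with a mean of 10 to 100 over the 12 libraries, the cytoplasmic share was 56.1% of 41 GRH windows without GRTS and 35.1% of 15337 unmarked windows. Both lay below in 6, 25 and 6 windows, where the shares of the whole table were 8.49%, 13.0% and 3.22%. Nuclear windows below made up 13.2% of the class. Among tested windows alone, 3.64%, 13.3% and 3.64% of the class lay below, against 16.6%, 21.2% and 7.20% of all tested windows. In 13 windows (6.84%) hrde-1 lay above in all 3 fractions, against 0.532% of all windows of the table. Reads in both hrde-1 libraries and in neither N2 library were found in 10, 6 and 32 windows, where the shares of the table were 1.91%, 0.949% and 2.75%. The reverse, reads in both N2 libraries and in neither hrde-1 library, was found in 2, 2 and 0 windows, at shares of the table of 1.22%, 3.04% and 0.296%. The 32 windows in cytoplasmic RNA coincide with the shallow N2 cytoplasmic libraries, in which 73.0% and 69.9% of all windows were at the floor, against 61.9% and 65.4% in hrde-1 cytoplasmic RNA; the part of depth in this count was not tested.

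A few windows carried much of the class mean. The 5 windows with the largest differences held 43.0% of the summed hrde-1 minus N2 difference of the 190 windows for whole RNA, 35.5% for the nuclear fraction and 39.5% for the cytoplasmic fraction. Without those 5, chosen by their difference, the class averaged 7.55 in hrde-1 and 5.54 in N2 whole RNA, 11.4 in hrde-1 and 9.03 in N2 nuclear RNA, and 5.72 in hrde-1 and 3.27 in N2 cytoplasmic RNA. In windows with GRTS the top 5 held 58.6%, 47.3% and 78.4% of the summed difference. Without them the class averaged 8.79 in hrde-1 and 1.45 in N2 whole RNA, 19.9 in hrde-1 and 2.96 in N2 nuclear RNA, and 3.84 in hrde-1 and 0.372 in N2 cytoplasmic RNA.

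Few single windows passed the threshold. Of the 22 tested windows with GRTS, limma called 2 higher in hrde-1 for whole RNA, 8 for the nuclear fraction and 6 for the cytoplasmic fraction, which makes 11 different windows. Of the 165 tested windows without GRTS, it called 2, 2 and 6, which makes 6 different windows. No GRH window was called lower. Over all tested windows 0.0979%, 0.287% and 0.803% were called higher in the same order, and 0.00228%, 0.00910% and 0.0637% were called lower. At an unadjusted p under 0.05, windows without GRTS were higher in 31, 24 and 49 and lower in 1, 4 and 0, where the shares over all tested windows were 2.36%, 1.88% and 14.0% higher and 1.36%, 2.44% and 2.80% lower. The median log2 difference of all tested windows was 0.00, -0.11 and 0.25 in the same order. At the same limit of p, 17, 19 and 13 windows with GRTS were higher and 0 lower.

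The counts moved with single libraries. In whole RNA no window without GRTS was called when either hrde-1 whole library was left out, and 1 without the generation 4 N2 whole library. In the windows with GRTS, 1 was called without any one of the 4 whole libraries, 4 without the generation 4 hrde-1 cytoplasmic library, and 8 and 7 without the generation 3 and 4 N2 cytoplasmic libraries. In nuclear RNA the count without GRTS was 0 without either hrde-1 nuclear library or the generation 4 N2 nuclear library, and 1 without the generation 3 N2 nuclear library. With GRTS it was 1 without either hrde-1 nuclear library, 2 without either N2 nuclear library and 5 without either hrde-1 whole library. In cytoplasmic RNA the count without GRTS rose when either N2 cytoplasmic library was left out, and so did the count over all tested windows. Both counts fell without the generation 3 N2 whole library and without any one of the hrde-1 libraries or the N2 nuclear libraries. With GRTS the cytoplasmic count also rose without the generation 4 N2 cytoplasmic library. When only the 4 libraries of a comparison were fitted, none of the 4 whole RNA calls and none of the 12 cytoplasmic calls passed, and all 10 nuclear calls did. With a pseudocount of 0.1, 2 of the 4, 1 of the 10 and 10 of the 12 passed.

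**Figure D2:**
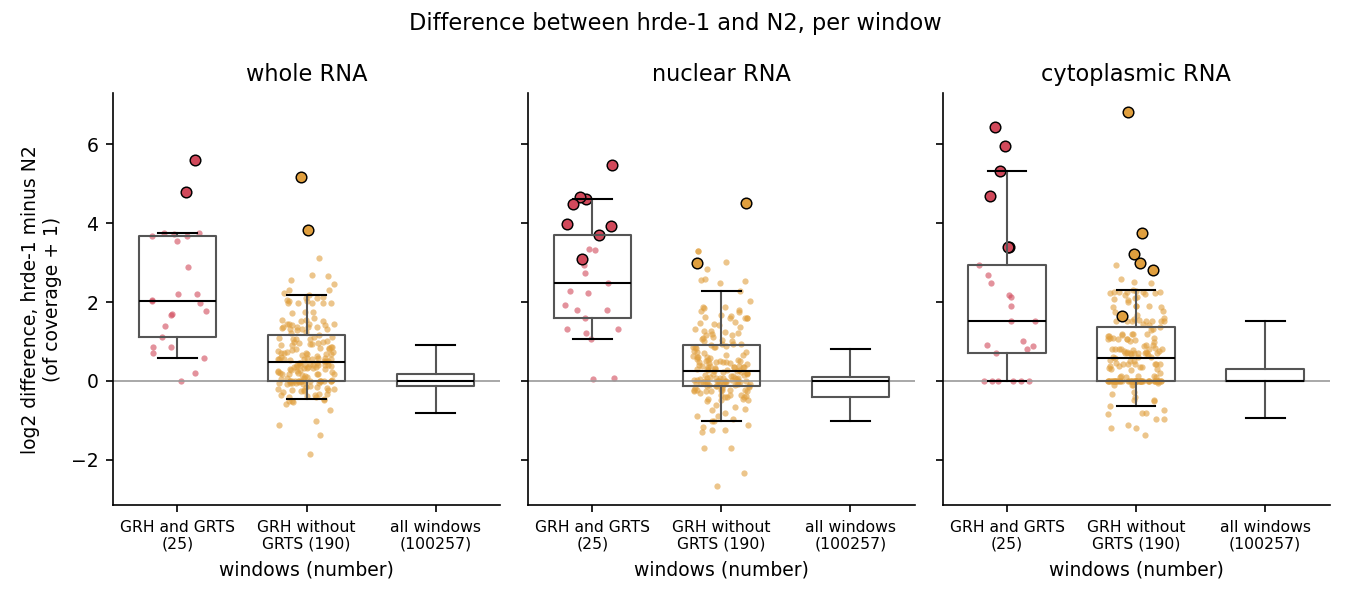
Log2 difference of coverage + 1, hrde-1 minus N2, per window in whole, nuclear and cytoplasmic RNA, with no filter. Shown are all GRH windows with GRTS (25), all GRH windows without GRTS (190) and all windows of the table (100257, box alone). Boxes are the quartiles with the median, whiskers run from the 5th to the 95th percentile, points are windows and outlined points passed the threshold. The medians of the windows with GRTS are 2.04, 2.47 and 1.53, those of the windows without GRTS 0.47, 0.25 and 0.58, and those of all windows 0.

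Among the windows with both marks, I:2634001-2635000 and II:13247001-13248000 passed the threshold in every fraction. The first held no reads in any N2 library. Its hrde-1 coverage was 54.9 and 49.6 for whole RNA, 52.1 and 43.5 for the nuclear fraction and 30.0 and 25.4 for the cytoplasmic fraction; generation 3 precedes generation 4 here and below. Counted against 3 reads over both N2 libraries, it was at least 26.8-fold higher for whole RNA, 28.1-fold for the nuclear fraction and 4.98-fold for the cytoplasmic fraction (limma adjusted p = 0.000539, 0.000540 and 0.00103). These 3 calls held whichever library was left out.

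II:13247001-13248000 had a coverage of 53.5 and 79.3 in hrde-1 whole RNA, against 1.50 and 1.30 in N2. In nuclear RNA it had 57.9 and 58.8 in hrde-1, against 0.100 and 4.31 in N2, a 27.7-fold difference. In cytoplasmic RNA it had 101 and 87.6 in hrde-1 and no reads in N2, at least a 17.0-fold difference. The limma adjusted p was 0.00372 in whole, 0.00539 in nuclear and 0.000332 in cytoplasmic RNA. The whole RNA call was lost without any one of the whole libraries (adjusted p up to 0.281) and the nuclear call without either hrde-1 nuclear library (up to 0.124), whereas the cytoplasmic call held without any library.

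Other windows with both marks were called in nuclear RNA alone. On chromosome I, the neighbours I:4461001-4462000 and I:4462001-4463000 lie in the longest run. The first had 98.4 and 70.2 in hrde-1 nuclear RNA, against 8.36 and 9.57 in N2 nuclear RNA, a 9.50-fold difference (log2 difference 3.08 ± 0.519 SE, limma adjusted p = 0.0204). The second had 67.6 and 61.3 in hrde-1, against 2.46 and 6.41 in N2, a 14.8-fold difference (log2 difference 3.69 ± 0.701 SE, adjusted p = 0.0434), and held no reads in any cytoplasmic library of either genotype. In whole RNA the pair was at 9.68 to 22.4 in hrde-1 and at 1.50 to 7.08 in N2 (adjusted p = 1.00 each). On chromosome IV, IV:4130001-4131000 had 56.0 and 45.4 in hrde-1 nuclear RNA, against 1.87 and 2.73 in N2 (adjusted p = 0.0212), and its neighbour IV:4131001-4132000 had 29.0 and 49.8, against 0.100 and 1.15 (adjusted p = 0.0135). V:20296001-20297000 had 67.6 and 35.2 in hrde-1 nuclear RNA, against 1.28 and 1.15 in N2 (adjusted p = 0.0135). In each of these 5 windows the lower hrde-1 nuclear library stood above the higher N2 one. All 5 calls were lost when any one of the 4 nuclear libraries was left out, with adjusted p up to 0.409 and 0.662 for the pair on chromosome I, 0.335 and 0.270 for the pair on IV and 0.227 for the window on V. The call of I:4461001-4462000 was also lost without either hrde-1 whole library, and that of I:4462001-4463000 held only without one of the N2 cytoplasmic libraries.

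On chromosome II, 2 further windows with both marks were called in cytoplasmic RNA. II:12283001-12284000 had 78.6 and 57.7 in hrde-1 cytoplasmic RNA and no reads in N2 cytoplasmic RNA, at least a 12.4-fold difference (limma adjusted p = 0.000765). It was also called in nuclear RNA, with 75.7 and 57.8 in hrde-1, against 1.28 and 7.46 in N2 (adjusted p = 0.0212, up to 0.409 and lost without any one of the nuclear, hrde-1 whole and hrde-1 cytoplasmic libraries). In whole RNA it had 56.2 and 62.1 in hrde-1, against 8.48 and 1.30 in N2, and missed the threshold (adjusted p = 0.0680). II:13249001-13250000 had 45.0 and 41.6 in hrde-1 cytoplasmic RNA and none in N2, at least a 7.74-fold difference (adjusted p = 0.00229). Its nuclear values were 3.96 and 12.8 in hrde-1, against 2.46 and 1.15 in N2 (adjusted p = 1.00). Both cytoplasmic calls held whichever library was left out.

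V:8828001-8829000 and V:8870001-8871000, 42 kb apart, had the same value in 11 of the 12 libraries, so the authors' counting may have shared reads between them and their separate values are uncertain. Each had 18.8 and 5.86 in hrde-1 cytoplasmic RNA and no reads in N2, at least a 2.40-fold difference (limma adjusted p = 0.0356). The calls held only without one of the N2 cytoplasmic libraries, with adjusted p up to 0.200 without another.

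**Figure D3:**
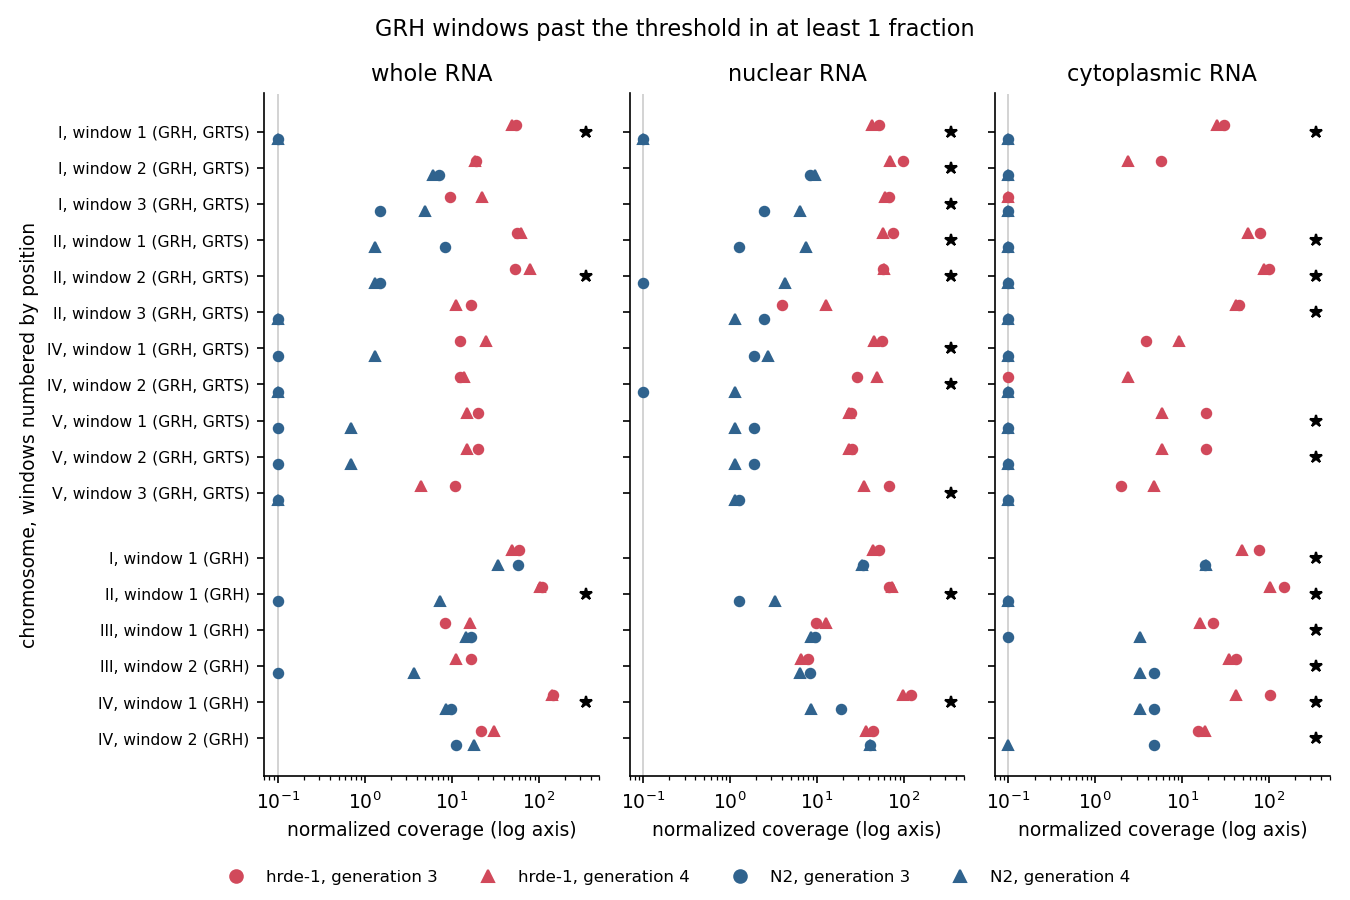
Normalized coverage (log axis) of the 17 GRH windows that passed the threshold in at least 1 fraction, in each library; circles are generation 3, triangles generation 4, the grey line is the floor of 0.1, and a star marks a difference past the threshold in that fraction. The 11 windows with both marks stand above, and the 6 without GRTS below, where 4 differ by more than the threshold in cytoplasmic RNA alone.

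Of the GRH windows without GRTS, 2 passed the threshold in all 3 fractions. II:13246001-13247000 lies 1 kb from a GRTS window, between a window with GRTS alone and II:13247001-13248000. It had 109.6 and 105 in hrde-1 whole RNA, against 0.100 and 7.32 in N2, a 29.7-fold difference (limma adjusted p = 0.00646). In nuclear RNA it had 67.6 and 72.8 in hrde-1, against 1.28 and 3.26 in N2, a 32.3-fold difference (adjusted p = 0.0134). In cytoplasmic RNA it had 149 and 101 in hrde-1 and no reads in N2, at least a 22.7-fold difference (adjusted p = 0.000483). The whole RNA call was lost without either hrde-1 whole library (adjusted p up to 0.293) and the nuclear call without any one of the nuclear libraries (up to 0.259), whereas the cytoplasmic call held.

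IV:8397001-8398000 is the other, and it lies 73 kb from the nearest GRTS window. It had 145 and 141 in hrde-1 whole RNA, against 9.87 and 8.52 in N2, a 15.7-fold difference (limma adjusted p = 0.00146). In nuclear RNA it had 122 and 97.0 in hrde-1, against 19.0 and 8.51 in N2, an 8.00-fold difference (adjusted p = 0.00924). In cytoplasmic RNA it had 103 and 41.6 in hrde-1, against 4.68 and 3.25 in N2, which is 73 against 2 reads and a 20.2-fold difference with an exact 95% Poisson interval of 5.39 to 169.9 (adjusted p = 0.00103). It sits in a run of 5 GRH windows, and the other 4 averaged 1.47 to 8.40 in hrde-1 whole RNA and 0.100 to 2.40 in N2 whole RNA. No other window of this run was called between the genotypes. Leaving out a hrde-1 whole library, or that of N2 at generation 4, ended the whole RNA call (adjusted p up to 0.109). The nuclear call was lost without either hrde-1 nuclear library or the generation 4 N2 one (up to 0.214), and the cytoplasmic call held throughout.

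The other 4 were called in cytoplasmic RNA alone, against the shallow N2 cytoplasmic libraries. I:11931001-11932000 had 76.8 and 48.5 in hrde-1 cytoplasmic RNA, against 18.4 and 19.0 in N2, a 3.36-fold difference (limma adjusted p = 0.0321). Its whole RNA overlapped between the genotypes, at 59.0 and 49.6 in hrde-1 and 58.7 and 33.8 in N2. III:3862001-3863000 had 22.5 and 16.2 in hrde-1 cytoplasmic RNA, against 0.100 and 3.25 in N2 (adjusted p = 0.0310), which is 19 reads against 1. III:9240001-9241000 had 41.2 and 34.6, against 4.68 and 3.25 (adjusted p = 0.0491), which is 37 reads against 2. IV:10356001-10357000 had 15.1 and 18.5, against 4.68 and 0.100 (adjusted p = 0.0429), which is 16 reads against 1. In nuclear RNA the genotypes overlapped in III:9240001-9241000 and IV:10356001-10357000, and in III:3862001-3863000 hrde-1 had 9.74 and 12.8, against 9.53 and 8.51 in N2. Every one of these 4 calls was lost when either hrde-1 cytoplasmic library was left out, with adjusted p up to 0.207 over the libraries left out, and all 4 were lost when each library was shifted to the same median.

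The 8 GRH windows without GRTS that gave most RNA were not alike in their genotype differences. IV:8397001-8398000 and II:13246001-13247000, described above, had the highest means over the 12 libraries and large differences. The next highest means were found at II:7040001-7041000, II:13186001-13187000, I:1838001-1839000, I:11931001-11932000, I:2626001-2627000 and I:10785001-10786000. II:13186001-13187000 had 67.2 and 45.9 in hrde-1 whole RNA, against 62.9 and 55.5 in N2, and 59.9 and 44.7 in hrde-1 nuclear RNA, against 57.9 and 49.5 in N2. I:1838001-1839000 had 39.8 and 50.8 in hrde-1 whole RNA, against 57.4 and 49.4 in N2. II:7040001-7041000 had 34.7 and 42.4 in hrde-1 whole RNA, against 56.9 and 51.6 in N2, a log2 difference of -0.49 ± 0.284 SE (limma adjusted p = 1.00). In I:2626001-2627000 and I:10785001-10786000 the whole RNA log2 differences were 0.31 and -0.35 (adjusted p = 1.00 each). None of these 6 windows was called in whole or nuclear RNA. Cytoplasmic RNA differed in direction among them. Besides I:11931001-11932000, both hrde-1 cytoplasmic libraries stood above both N2 ones in II:7040001-7041000, at 60.1 and 51.0 in hrde-1 against 25.3 and 41.03 in N2 (adjusted p = 0.190), and in I:2626001-2627000, at 35.3 and 38.1 in hrde-1 against 11.6 and 34.2 in N2 (adjusted p = 0.317). In II:13186001-13187000 they stood below, at 31.9 and 27.7 in hrde-1 against 41.3 and 37.9 in N2 (adjusted p = 0.537).

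The lowest differences among tested windows without GRTS stayed short of the threshold. In nuclear RNA they were at IV:14773001-14774000, with 0.100 and 7.75 in hrde-1, against 16.6 and 21.1 in N2 (log2 difference -2.67 ± 0.764 SE, limma adjusted p = 0.426). III:10055001-10056000 had 0.100 and 2.65 in hrde-1 nuclear RNA, against 7.18 and 11.7 in N2 (adjusted p = 0.879), and X:255001-256000 had 0.100 and 0.740, against 6.59 and 1.68 (adjusted p = 1.00). In these 3 both hrde-1 libraries lay below both N2 libraries. In whole RNA the lowest were I:5978001-5979000, I:5980001-5981000 and I:4469001-4470000, with log2 differences of -1.84, -1.36 and -1.12 (adjusted p = 1.00 each). In cytoplasmic RNA they were IV:10354001-10355000, III:12973001-12974000 and III:13163001-13164000, at -1.38, -1.18 and -1.18, where N2 held 2, 1 and 1 reads and hrde-1 none.

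Within the longest runs the RNA was uneven. In I:4457001-4470000 the mean over its 12 GRH windows was 23.3 and 18.9 in hrde-1 nuclear RNA, against 6.39 and 9.38 in N2 nuclear RNA. The windows with GRTS held the peak, and the last 3 windows of the run, which lack GRTS, averaged 0.100 to 0.785 in hrde-1 whole RNA. Each window with GRTS had a higher nuclear mean in hrde-1 than in N2. Of the run's windows without GRTS, all but I:4465001-4466000 (10.35 against 8.345) had a lower nuclear mean in hrde-1. The largest such gap was at I:4458001-4459000, at 6.8 in hrde-1 against 18.0 in N2. In V:5472001-5479000, a run of 7 windows without GRTS, every window had a higher nuclear mean in hrde-1 than in N2. Its mean was 35.8 and 32.5 in hrde-1 nuclear RNA, against 14.5 and 14.0 in N2 nuclear RNA, and 8.60 and 11.5 in hrde-1 whole RNA, against 3.39 and 4.09 in N2 whole RNA. In cytoplasmic RNA it was 3.04 and 2.57 in hrde-1, against 1.63 and 1.22 in N2. Above the floor the hrde-1 to N2 ratio of this run was 2.40 in nuclear, 2.74 in whole and 2.04 in cytoplasmic RNA. None of its 7 windows passed the threshold alone between the genotypes. II:11171001-11178000 had 10.3 and 9.21 in hrde-1 nuclear RNA, against 4.14 and 3.56 in N2, and no reads in N2 cytoplasmic RNA. II:12740001-12747000 had 13.3 and 11.5 in hrde-1 nuclear RNA, against 6.36 and 6.94 in N2. I:2629001-2635000 had 18.1 and 15.2, against 5.67 and 6.70, and holds I:2634001-2635000 as its 1 GRTS window. As means over the run, both hrde-1 nuclear libraries stood above both N2 nuclear libraries in all 5 runs.

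**Figure D4:**
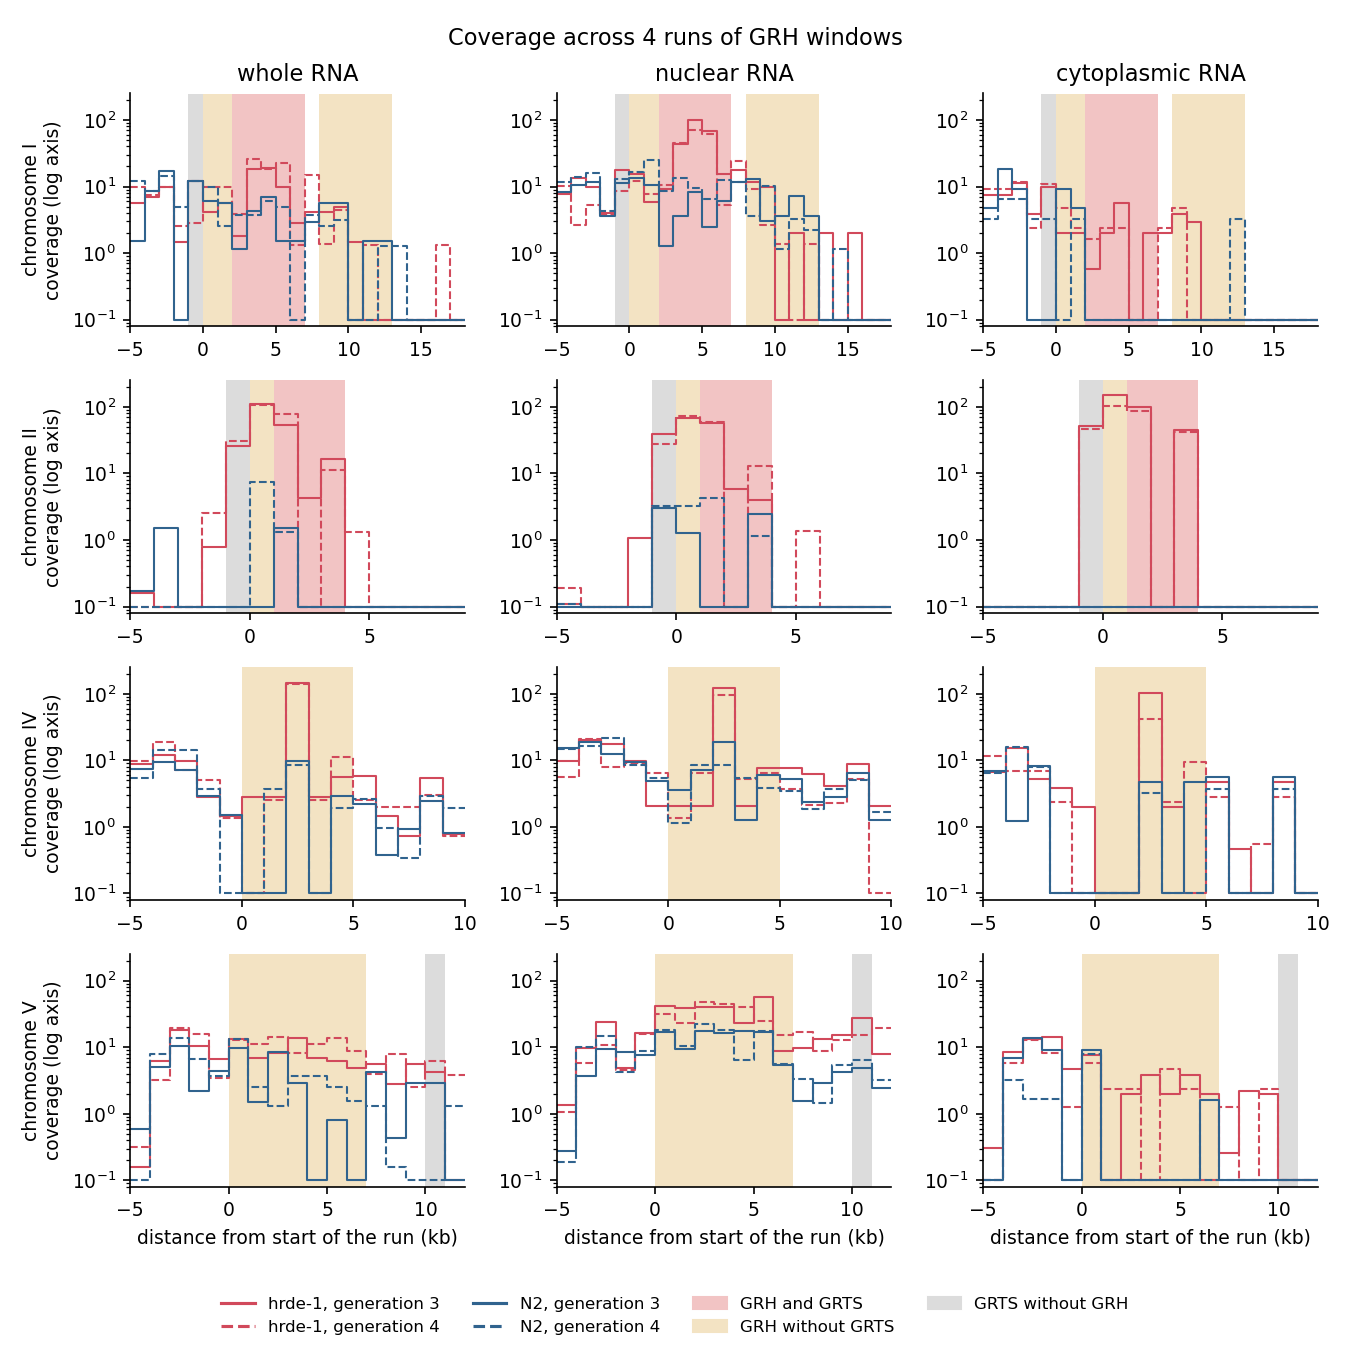
Normalized coverage (log axis) along 4 stretches, as distance in kb from the start of the run of GRH windows: the longest run on chromosome I, the stretches around the highest windows on II and IV, and the run of 7 windows on V. Lines are the 4 libraries of each fraction, solid for generation 3 and dashed for generation 4, and shading marks GRH windows without GRTS (tan), with GRTS (red) and windows with GRTS alone (grey). On IV the hrde-1 libraries rise to 145 and 141 in whole RNA in 1 window, and on V the nuclear hrde-1 libraries run above the nuclear N2 libraries across the run.

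RNA from GRH windows lay more in the nuclear than in the cytoplasmic fraction. In windows without GRTS the ratio of nuclear to cytoplasmic mean coverage was 1.74 in hrde-1 (1.65 and 1.84 in the 2 generations) and 2.76 in N2 (2.88 and 2.66), where it was 1.02 and 1.12 over all windows of the table. In windows with GRTS it was 2.19 in hrde-1 (2.15 and 2.25) and 9.07 in N2 (10.7 and 8.48), the last against 5 reads in N2 cytoplasmic RNA. In windows with GRTS and no GRH it was 4.05 in hrde-1 and 5.68 in N2. The fractions are normalized each to its own library, so these are ratios of shares and not of amounts.

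Of the 165 tested windows without GRTS, 34 were called higher in nuclear than in cytoplasmic RNA of hrde-1 and none lower, where 4.63% of all tested windows were called higher and 2.30% lower. In N2, 56 were called higher and none lower, where 14.0% of all tested windows were called higher and 1.99% lower. Of the 22 tested windows with GRTS, 8 were called higher and 1 lower in hrde-1, and 4 higher in N2. The table itself was shifted: the median log2 difference of all tested windows was 0.30 in hrde-1 and 0.82 in N2, and that of all 190 windows without GRTS was 1.24 and 1.57, where it was 0 and 0.33 over all windows of the table. With every library shifted to the same median, 17 windows without GRTS were called higher and 2 lower in hrde-1, where the table split into 830 higher and 1650 lower. In N2, 13 were then called higher, where the table split into 661 higher and 1782 lower. Leaving out a library moved the hrde-1 count of 34 to 7 and 17 without the generation 3 and 4 hrde-1 nuclear libraries, to 14 and 11 without the hrde-1 cytoplasmic ones and to 22 without either N2 nuclear library. The N2 count of 56 moved to 9 and 12 without the generation 3 and 4 N2 nuclear libraries. With GRTS, the hrde-1 count of 8 moved to 4 without the generation 3 hrde-1 nuclear or cytoplasmic library and to 5 without the generation 4 hrde-1 nuclear one, and the N2 count of 4 moved to 1 without the generation 4 N2 nuclear library.

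The nuclear calls were also set against unmarked windows of like level, as a description with no test. Among windows with a mean of 3 to 10 over the 12 libraries, 41.9% of 86 GRH windows without GRTS were called higher in nuclear RNA of N2, against 15.3% of 12702 unmarked windows. In hrde-1 these shares were 23.3% and 4.09%. Among windows with a mean of 1 to 3 the shares in N2 were 21.1% and 15.1%, and among those of 10 to 100 they were 29.3% and 11.4%. In hrde-1 they were 26.3% and 5.41% at 1 to 3, and 9.76% and 2.66% at 10 to 100. The nuclear excess was not particular to marked windows. Among tested windows over 20 kb from any GRTS window, 33.3% of GRH windows were called higher in N2. The share was 30.4% in unmarked windows 1 kb from a GRH window, 19.8% at 2 kb and 13.8% over 20 kb. For hrde-1 the shares were 17.1%, 15.2%, 4.17% and 4.05% in the same order.

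The largest nuclear excess in N2 was found in the run on chromosome V and at IV:10356001-10357000. V:5474001-5475000 had 17.8 and 22.2 in N2 nuclear RNA and no reads in N2 cytoplasmic RNA (log2 difference 4.25, limma adjusted p = 0.00105), and V:5477001-5478000 had 17.2 and 17.5 and no reads (4.06, adjusted p = 0.00134). V:5475001-5476000 was named in both genotypes, with 40.6 and 45.4 in nuclear and 3.84 and 0.100 in cytoplasmic RNA of hrde-1 (4.25, adjusted p = 0.00182), and 16.6 and 18.0 in nuclear RNA and no reads in cytoplasmic RNA of N2 (4.06, adjusted p = 0.00210). IV:10356001-10357000 had 41.4 and 41.1 in N2 nuclear RNA, against 4.68 and 0.100 in N2 cytoplasmic RNA (4.08, adjusted p = 0.000519). In hrde-1 the largest were I:4462001-4463000 (log2 difference 5.89, adjusted p = 0.000128), IV:4131001-4132000 (4.34, adjusted p = 0.00244) and II:11174001-11175000 (4.27, adjusted p = 0.00208), the last with 21.3 and 19.2 in nuclear RNA and no reads in cytoplasmic RNA. These calls held without any single library. II:13249001-13250000 was the 1 GRH window called lower in nuclear than in cytoplasmic RNA, in hrde-1 (-2.42, adjusted p = 0.0479), and it lost the call in 9 of the 12 fits that left out a library (up to 0.324).

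The nuclear minus cytoplasmic difference itself was not shown to differ between the genotypes at any window. No GRH window and no window of the table (0%) passed the threshold in limma's test of that interaction, and the lowest adjusted p among GRH windows was 0.220. At an unadjusted p under 0.05, 6 windows without GRTS had a larger and 22 a smaller nuclear excess in hrde-1, where the shares of all tested windows were 2.18% and 9.34%; with GRTS they were 4 and 1. Leaving out either N2 cytoplasmic library leaves 1 library in that group. Windows across the table, GRH windows among them, were then called, mostly with a smaller nuclear excess in hrde-1. Without the generation 3 and 4 libraries the median of this difference over all tested windows was -0.36 and -0.44, against -0.42 with all libraries.

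The difference did not follow the distance to a GRTS window step by step. The 14 GRH windows without GRTS next to a GRTS window averaged 12.3 ± 0.0404 in hrde-1 whole RNA and 2.62 ± 0.264 in N2 whole RNA (SD, n = 2 each), and II:13246001-13247000, the highest of them, carried much of the hrde-1 mean. The other 13 windows averaged 5.02 ± 0.190 in hrde-1 and 2.54 ± 0.108 in N2 whole RNA (SD, n = 2 each). Both hrde-1 whole libraries lay above both N2 whole libraries in 7 of the 14 windows next to a GRTS window (50.0%), in 8 of 26 at 2 to 5 kb (30.8%), in 10 of 15 at 6 to 20 kb (66.7%) and in 47 of the 135 farther away or on a chromosome without one (34.8%), where the share over all windows of the table was 9.14%. Most of the 15 windows at 6 to 20 kb came from the runs V:5472001-5479000, III:3452001-3456000 and I:248001-252000. Neighbouring windows share transcripts, so the shares by distance are a description of few loci with no test. Over the 55 windows within 20 kb of a GRTS window, mean coverage was 10.4 ± 0.633 in hrde-1 and 5.65 ± 0.0802 in N2 whole RNA, and over the 135 farther away or on a chromosome without one it was 8.48 ± 0.448 and 5.58 ± 0.151. For the nuclear fraction it was 16.4 ± 1.49 in hrde-1 and 9.50 ± 0.592 in N2 within 20 kb, and 11.1 ± 0.985 and 9.03 ± 0.437 farther away.

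Away from GRTS, the windows beside a GRH window were set against those farther off. In whole RNA both hrde-1 libraries lay above both N2 libraries in 34.8% of the 135 GRH windows over 20 kb from any GRTS window, 28.8% of 139 unmarked windows 1 kb from them and 21.1% of 128 windows at 2 kb. The share was 15.1% at 3 to 5 kb, 16.2% at 6 to 10 kb, 10.3% at 11 to 20 kb and 8.62% over 20 kb. In nuclear RNA it was 31.9% in the GRH windows, 25.9% at 1 kb, 17.2% at 2 kb and 7.81% over 20 kb, and in cytoplasmic RNA 33.3%, 28.1%, 28.9% and 10.5%. Neighbouring windows share transcripts, so these shares are a description with no test. The part of windows averaging at least 1 over the 12 libraries fell with distance as well. It was 117 of the 135 GRH windows, 112 of 139 at 1 kb and 40925 of 95019 over 20 kb. Among all tested windows the whole RNA share was 16.6%. How far coverage accounts for the fall of the shares was not tested. The unmarked windows at 1 kb averaged 7.19 ± 0.361 in hrde-1 whole RNA and 5.67 ± 0.0938 in N2 whole RNA (SD, n = 2 each).

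**Figure D5:**
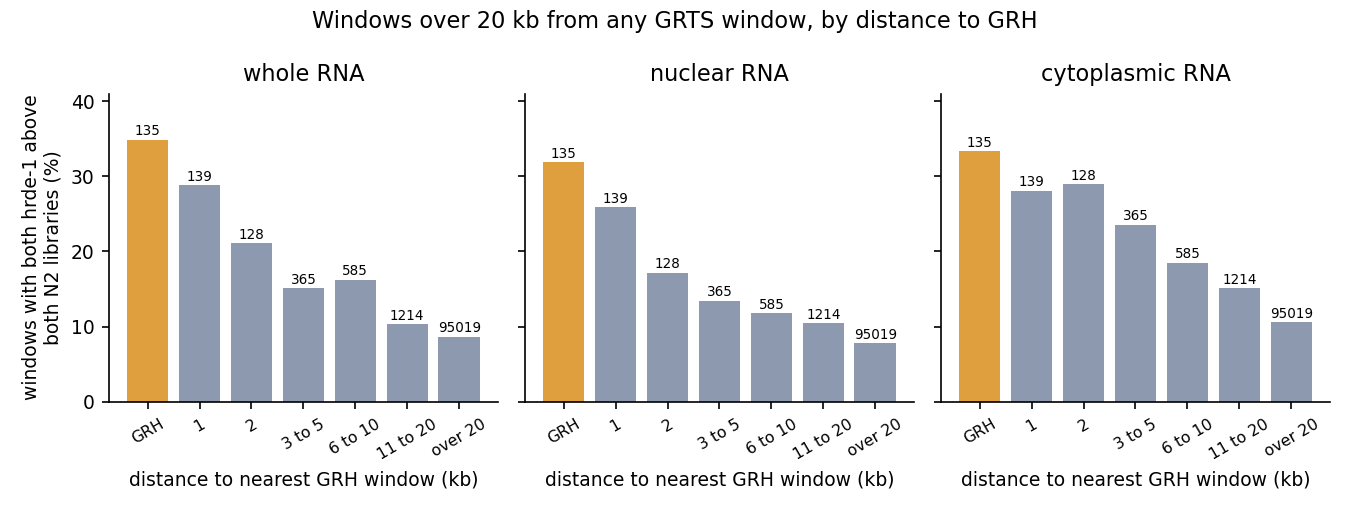
Share of windows (%) in which both hrde-1 libraries lay above both N2 libraries, for GRH windows over 20 kb from any GRTS window (first bar) and for unmarked windows by distance to the nearest GRH window in kb; numbers over the bars are windows. In whole RNA the share is 34.8% at GRH windows, 28.8% at 1 kb and 8.62% over 20 kb. Windows averaging at least 1 over the 12 libraries are 112 of 139 at 1 kb and 40925 of 95019 over 20 kb.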

How the data were processed

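The authors deposited 1 table of normalized coverage, a signal per window of 1000 bases with a floor of 0.1, with 12 libraries side by side and the marks GRTS and GRH. Bowtie 0.12.7 is named in the submitters' processing notes. Not given in the sources used here are the build, the strand, the handling of reads that fit several places and what the coverage was scaled to. The table ends at 20920000 on chromosome V, before 3 genes of the WBcel235 annotation, and at 15060000 on chromosome I, before 11 genes, so no annotation and no sequence was used.

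All 12 libraries entered 1 fit of 6 groups (6 residual degrees of freedom) in limma 3.58.1 under R 4.3.3. It used lmFit, contrasts.fit and eBayes with a trend on log2(coverage + 1), which understates the change of low windows. The fit was run on simulated data with changes in nuclear RNA alone, so the simulation gives no check on calls in cytoplasmic or whole RNA. Adjustment ran over the 43933 windows (43.8%) with a mean of at least 1. Between 79.8% and 89.7% of the values below 40 in a library lay within 0.0065 of a whole multiple of its step above the floor, and reads are values divided by that step; no count model was used. Signal sums were 839240 to 983821. Folds are ratios of mean coverage above the floor. Where a group held no reads they are lower bounds against 3 reads over its 2 libraries, and at 1 to 3 reads they are ratios of reads per depth; intervals (exact 95% Poisson) and bounds cover counting error only.

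Windows named are every GRH window called between the genotypes, the 5 longest runs, the 8 windows without GRTS of highest mean, up to 4 called windows of largest difference per direction for nuclear against cytoplasmic RNA in each genotype, and the 3 lowest differences without GRTS per fraction. The members, lists and tests were chosen with earlier results of these data known. Alternatives were other pseudocounts, filters and scalings, a fit of the compared groups alone, a generation block and leaving out each library.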

Additional observations from a re-analysis of the deposited data

Results flagged for a closer look

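Some GRH windows without GRTS had genotype differences of opposite sign in different fractions, with both hrde-1 libraries on one side of both N2 libraries in each fraction given. These windows were noticed by the position of the libraries and the difference between the fractions was not tested that way; the limma test of the nuclear minus cytoplasmic difference called no window. In I:5978001-5979000 the log2 difference was -1.84 in whole RNA and 1.33 in cytoplasmic RNA, on 0 reads in hrde-1 and 6 in N2 whole RNA and on 2 reads in hrde-1 and 0 in N2 cytoplasmic RNA. In II:7040001-7041000 it was -0.49 for whole RNA, -0.12 for the nuclear fraction and 0.76 for the cytoplasmic fraction. In IV:14773001-14774000 it was 0.87 for whole RNA, -2.67 for the nuclear fraction and 1.13 for the cytoplasmic fraction. In X:255001-256000 it was 0.71 for whole RNA, -1.70 for the nuclear fraction and 1.58 for the cytoplasmic fraction, on 1 to 5 reads in hrde-1 and 0 to 8 in N2. Groups of 2 libraries are too small to mark a library as lying apart from the others.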

How the results depend on the processing

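Under the alternatives run, no named window changed direction in a comparison in which it was called; some named windows that missed the threshold did, at differences near 0. The cause of the moves below was not tested. Counts are windows called higher, without GRTS unless said. In whole RNA (2, and 2 with GRTS) a pseudocount of 0.1 gave 1 and 1 with GRTS, no filter 1 and 5 with GRTS, quantile normalization 5 with GRTS, and a fit of the compared groups alone 0 and 0. The 43 windows of the table called higher there became 21, 209, 52 and 0 in the same order. In nuclear RNA (2, and 8 with GRTS) a pseudocount of 10 gave 8, one of 0.1 gave 0 and 1 with GRTS, no filter 5 with 1 lower, quantile normalization 8, and a mean of at least 10 gave 4 with GRTS. The table's 126 nuclear calls became 266, 12, 509 with 880 lower, 238 and 40 in the same order. In cytoplasmic RNA (6, and 6 with GRTS) a pseudocount of 0.1 gave 15, median scaling 2, quantile normalization 2, and the compared groups alone 0 and 0 with GRTS. The table's 353 cytoplasmic calls higher (0.803%) became 861 (1.96%), 110, 65 and 0 in the same order. Median scaling turned the median of all tested windows there, 0.25, to -0.08 and that for nuclear against cytoplasmic RNA in hrde-1, 0.30, to -0.09, and moved the cytoplasmic calls of the table to 110 higher and 92 lower. For nuclear against cytoplasmic RNA in hrde-1 (34, and 8 with GRTS) no filter gave 22, a mean of at least 10 gave 4 and 5 with GRTS, median scaling 17 and 5 with GRTS, quantile normalization 20, and the compared groups alone 0 and 0. Lower there (0) were 2 at a pseudocount of 10, 1 at a mean of at least 10, 2 with either scaling and 1 with the replicate block, and the 1 window lower with GRTS went to 0 at a pseudocount of 0.1, with no filter, at a mean of at least 10, with the compared groups alone and with the replicate block. In N2 (56, and 4 with GRTS) a mean of at least 10 gave 13 and 2 with GRTS, median scaling 13 and 1, quantile normalization 9 and 1, a pseudocount of 10 gave 2 with GRTS, one of 0.1 gave 8 with GRTS and no filter 2 with GRTS. For the difference between genotypes of the nuclear minus cytoplasmic difference (0), no filter gave 2 higher and 4 lower. Over the table it gave 454 higher and 911 lower of 100257 windows. A pseudocount of 10 gave 2 higher with GRTS, where the table had 59 higher.

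Leaving out 1 library gave 0 to 2 and 1 to 8 with GRTS in whole RNA, 0 to 3 and 1 to 10 in nuclear RNA, 2 to 22 and 4 to 10 in cytoplasmic RNA, 7 to 47 and 4 to 9 for nuclear against cytoplasmic RNA in hrde-1 (lower 0 to 2, and 0 to 1 with GRTS), 9 to 59 and 1 to 6 in N2, and for the difference between genotypes 0 to 1 higher and 0 to 7 lower, with 0 to 1 each with GRTS. The number is the count of generations grown at 23 C; whether libraries of the same number share a culture is not given in the labels, and their deviations correlated at 0.011 to 0.079 over windows. The replicate block gave 2 and 2 with GRTS in whole, 2 and 8 in nuclear and 5 and 6 in cytoplasmic RNA, 33 and 8 for nuclear against cytoplasmic RNA in hrde-1 and 57 and 4 in N2. Depth limits N2 cytoplasmic RNA most, where 1 read is worth up to 4.58 in coverage.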
